A study of Mus musculus with 2 samples.

Results

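The calcification promoters and inhibitors are 10 genes, chosen by name from the 31053 genes listed in the count tables: *Spp1*, *Mgp*, *Enpp1*, *Ank*, *Alpl*, *Runx2*, *Slc20a1*, *Slc20a2*, *Tnfrsf11b* and *Msx2*. All 10 had UMIs in both libraries, and all 10 passed the filter on low counts. The rule sets 3 promoters (*Runx2*, *Alpl* and *Slc20a1*) against 4 inhibitors (*Mgp*, *Enpp1*, *Ank* and *Tnfrsf11b*). They were read in 2 single-cell libraries, replicates 1 and 2, of vascular smooth muscle cells (VSMCs) from the aorta of wild type mice. The cells had grown for 5 days in full medium, with 6% CO2 and at 37 °C. There was 1 condition, the labels list no calcifying medium or other treatment, and the labels give neither strain nor age. The series has no control group, so that all comparisons are between cells of the same culture. Per the study's methods, primary VSMCs were prepared from several pooled aortae, so that a library does not stand for 1 animal.

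Mineral deposits form in the vessel wall where phosphate is plentiful and its inhibitors are few. Pyrophosphate blocks the growth of hydroxyapatite crystals. It is made outside the cell from ATP by ENPP1, brought out of the cell with the help of ANK, and split into phosphate by the tissue-nonspecific alkaline phosphatase encoded by *Alpl*. SLC20A1 (PiT-1) and SLC20A2 (PiT-2) carry phosphate into the cell. Matrix Gla protein (MGP) and osteopontin (SPP1) hold back mineral in the matrix, and osteoprotegerin (TNFRSF11B) is a decoy receptor for RANKL. RUNX2 and MSX2 are transcription factors of bone development, and VSMCs that lose their contractile state can take them up in culture and in calcified arteries.

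RUNX2 binds the core sequence TGTGGT, which reads ACCACA on the other strand. Both strands were searched in the 250 bases before each RefSeq start (GRCm38.p6), because these members include *Runx2* itself and *Spp1*, a known target of RUNX2. The table held 7 of the 10 members, without *Mgp*, *Slc20a2* and *Tnfrsf11b*. A match was found before 4 of their 10 starts, at 128 bases before the start of *Spp1*, 80 before *Runx2*, 77 before *Slc20a1* and 144 before *Enpp1*, while 14.0% of all 32851 starts had one. A match is a description of these letters and not a binding site. The windows of *Spp1* (chr5:104434861-104435110, plus strand) and *Runx2* (chr17:44814628-44814877, minus strand) are shown for the members that differed most clearly between cells with much and little *Myh11*, with the match in capitals.
Spp1: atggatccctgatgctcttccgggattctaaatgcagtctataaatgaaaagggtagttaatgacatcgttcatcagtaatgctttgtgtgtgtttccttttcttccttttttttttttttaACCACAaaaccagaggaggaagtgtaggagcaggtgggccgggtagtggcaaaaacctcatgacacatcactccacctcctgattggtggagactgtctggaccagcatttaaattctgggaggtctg
Runx2: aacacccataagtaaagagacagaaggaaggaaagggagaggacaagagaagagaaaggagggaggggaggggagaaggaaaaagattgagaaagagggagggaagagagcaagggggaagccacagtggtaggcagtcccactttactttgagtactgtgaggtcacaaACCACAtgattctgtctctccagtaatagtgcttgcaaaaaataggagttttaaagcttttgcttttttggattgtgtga

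The libraries held 127949633 and 132561822 UMIs (unique molecular identifiers, which count molecules). A barcode was taken as a cell where it had 3000 UMIs or more, 300 genes or more and a mitochondrial share under 20%, which left 4866 in replicate 1 and 6824 in replicate 2, with a median of 22234.5 and 16310 UMIs per cell. The libraries shared 9 cell barcodes. Free RNA made up an estimated 3.63% and 2.98% of the UMIs of a cell. EC-like cells, with at least 5 UMIs of endothelial markers, numbered 112 and 151, and macrophage-like cells 16 and 10.

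*Myh11*, the smooth muscle myosin heavy chain, marks contractile VSMCs, and *Sox9* is a regulator of cartilage. In replicates 1 and 2, 477 and 882 cells had at least 5 *Myh11* UMIs, 4051 and 5500 had at most 1, 800 and 1865 had at least 2 *Sox9* UMIs, and 1872 and 2209 were cycling, with at least 10 UMIs of 15 cell cycle genes. These groups overlap. For the tests they were made disjoint: Myh11-high cells (198 and 328), Myh11-low cells (1558 and 2301), Sox9-positive cells with little *Myh11* (257 and 775), and cycling cells with little of both (1271 and 1134). Non-cycling classes had at most 2 cycle UMIs. A further 32.5% and 33.5% of the cells were in none of the classes. The contractile list of 10 genes includes *Myh11* itself, used to choose the classes. Part of its difference between the classes was thus set in advance. The list summed to 29634 and 33730 CPM (UMIs of a gene per 1000000 UMIs of the class) in Myh11-high cells. In the other classes it summed to between 3651 and 7722 CPM. EC-like and macrophage-like cells of replicate 1 had 6068 and 4908 CPM, so that a sum in this range does not mark cells as VSMCs. The 11 osteoblast markers summed to between 23.6 and 26.1 CPM in every class of replicate 1, with *Ibsp* at 0 UMIs in all classes of both libraries. In replicate 2 they summed to 70.0 CPM in Myh11-high cells, where *Sost* had 371 UMIs, and to between 23.6 and 30.3 CPM elsewhere. No osteoblast name is used for any class. The 11 chondrocyte markers summed to 374 and 456 CPM in Sox9-positive cells, of which *Sox9* itself, used to choose them, made up 173 and 266 CPM, with *Chad* and *Matn1* at 0 in both libraries. They summed to 185 and 160 CPM in Myh11-low cells, 176 and 143 CPM in cycling cells and 159 and 39.2 CPM in Myh11-high cells. Most of the excess in Sox9-positive cells was thus *Sox9* itself.

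Levels below are CPM of the UMIs summed over a class, given for replicates 1 and 2 in turn, and each molecule is counted once, whatever the length of its transcript. Tests are edgeR's quasi-likelihood test on the 8 sums of UMIs (2 libraries by 4 classes), with p adjusted over 13366 genes. Since all sums of 1 library share a culture, the same fit with the library as a block is given beside it where it changes a call. Log2 differences within 1 library are scaled by TMM like the fits, which shifts them all a little from the ratio of the printed CPM. The plot of levels by class shows all 10 members.

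**Figure D1:**
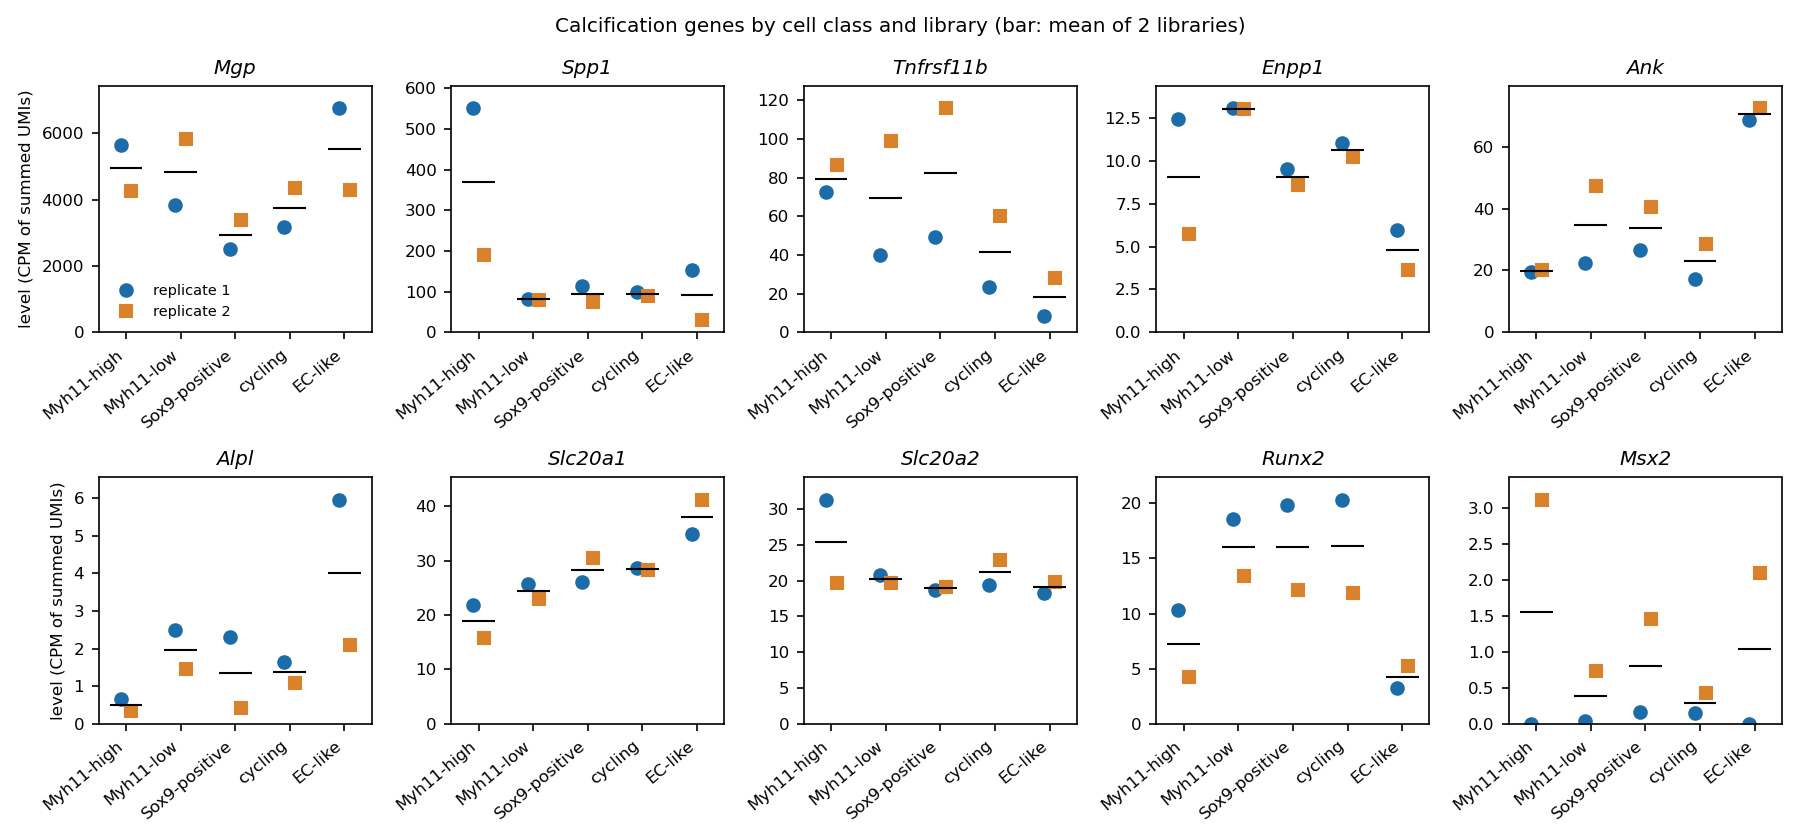
CPM of the 10 members (y axes, linear, from 0) in the Myh11-high, Myh11-low, Sox9-positive, cycling and EC-like cells (x axes) of replicates 1 and 2, with a point for each library and a bar at their mean. *Spp1* is highest in Myh11-high cells of both libraries (551 and 189 CPM), *Runx2* is lowest there among the 4 classes (10.3 and 4.25 CPM), and *Ank* is highest in EC-like cells (68.8 and 72.5 CPM).

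Between Myh11-high and Myh11-low cells, *Spp1* was higher and *Runx2* was lower with much *Myh11* in both libraries. *Mgp*, the most abundant member, differed in opposite directions in the libraries. The 8 markers of modulated VSMCs summed to 6669 and 6095 CPM in Myh11-high cells and to 7371 and 7748 CPM in Myh11-low cells. The 7 adventitial fibroblast markers summed to 726 and 441 CPM against 821 and 744 CPM. Low *Myh11* alone thus does not mark cells as modulated VSMCs. Without the block, 0 of the 10 members passed edgeR's quasi-likelihood test, while 4.56% of all genes tested did (609 of 13366, 380 higher and 229 lower). DESeq2 called 1 member (*Spp1*), beside 1375 of 20361 genes. In edgeR 1 member (*Spp1*) had an unadjusted p under 0.05, and the share of all genes under that limit was not counted. With the library as a block, 3 members were called (*Spp1* higher, *Runx2* and *Ank* lower), beside 27.3% of all genes, a share near that of the members, so that the count says nothing particular about them. A member that missed the test is not shown to be equal between the classes.

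*Spp1* (chr5:104435118-104441050, plus strand, GRCm38 as are the positions below) encodes osteopontin, an acidic phosphoprotein that binds mineral and integrins. The gene model *Gm42793* overlaps at least 1 of its exons on the same strand, but is not among the genes counted in either library. The level of *Spp1* in Myh11-high cells was 551 and 189 CPM, and in Myh11-low cells 82.8 and 80.5 CPM. Both Myh11-high libraries were above all 6 sums of the other classes, although they differed from each other more than any other class did (370 ± 255 CPM, SD, n = 2, against 81.6 ± 1.62). The log2 fold change was 2.29 ± 0.48 (SE), which missed the threshold (adjusted p = 0.0516, edgeR's quasi-likelihood test). With the library as a block it was 2.15 ± 0.32 and was called (adjusted p = 0.00357). Over the 11 settings without a block it was called in 6, with an adjusted p between 3.81e-05 and 0.131, and over the 9 settings with a block in all 9, with an adjusted p between 0.000379 and 0.00595. Sox9-positive cells (113 and 74.7 CPM) and cycling cells (99.5 and 88.1 CPM) were near the Myh11-low cells.

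A few cells carried much of the *Spp1*. The 1% of cells with the most *Spp1* UMIs held 30.4% and 31.2% of all of them, with up to 382 and 366 UMIs in 1 cell. Of these 48 and 68 cells, 58.3% and 38.2% had at least 5 *Myh11* UMIs, compared with 9.80% and 12.9% of all cells. With each cell capped at the 99th percentile of its library, a limit chosen after the data had been seen, Myh11-high cells were still above Myh11-low cells, at 437 against 78.6 CPM and 172 against 64.8 CPM. The share of cells with a *Spp1* UMI was 42.4% (84 of 198 cells, exact 95% interval 35.4 to 49.6) and 43.3% (142 of 328, 37.9 to 48.8) of Myh11-high cells. Of Myh11-low cells it was 26.6% (414 of 1558, 24.4 to 28.8) and 21.1% (485 of 2301, 19.4 to 22.8). The intervals of the classes did not overlap in either library. They cover counting error only. At a fixed depth of 3000 UMIs per cell, the shares were 28.9% and 23.0% against 10.9% and 10.2%, so that the difference in share was also present where depth was equal. In EC-like cells 19.6% and 10.6% had a UMI, and free RNA alone would give 8.3% to 11.3% in replicate 1 and 2.6% to 3.4% in replicate 2, so that the Myh11-high shares were above both.

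**Figure D2:**
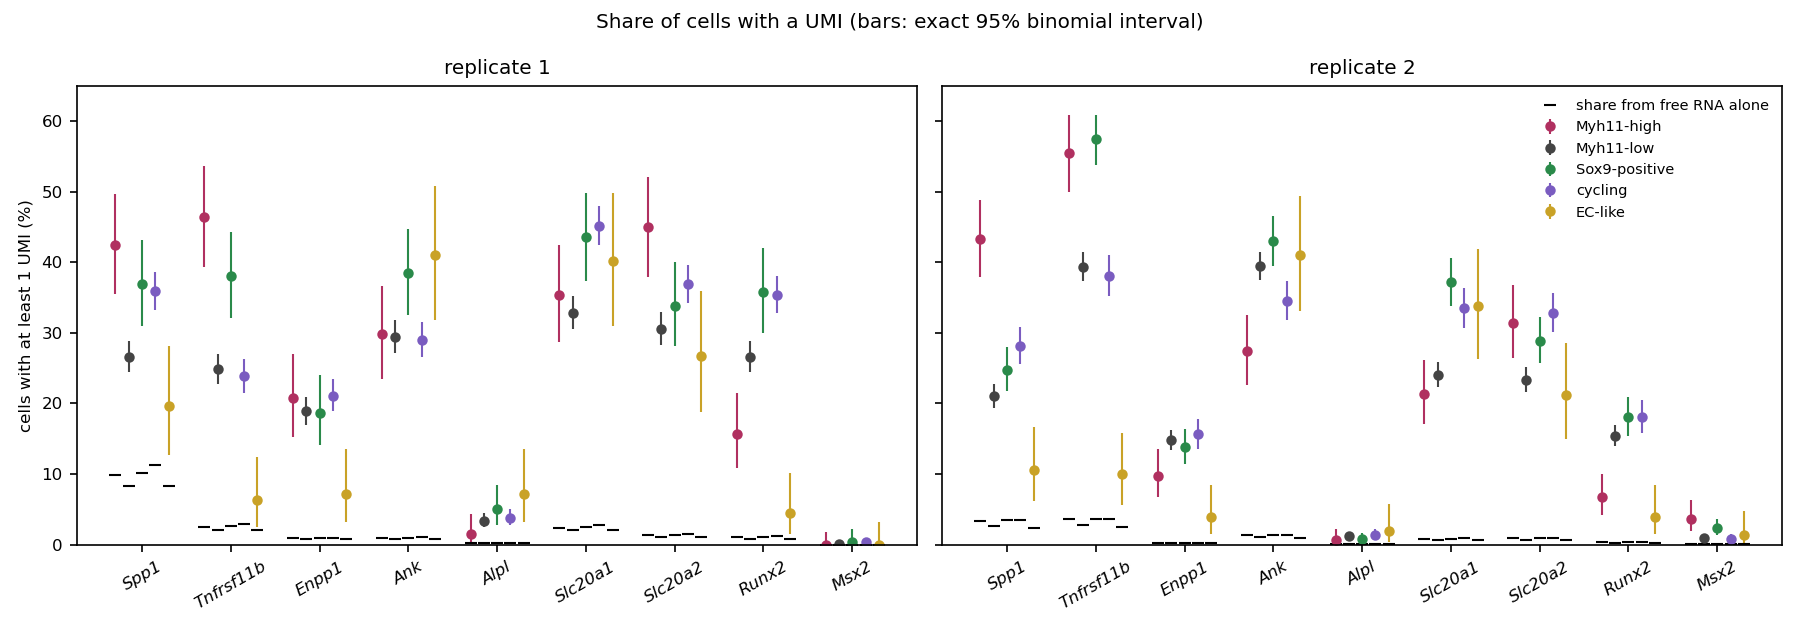
Share of cells with at least 1 UMI of each member except *Mgp* (y axis, percent of cells) by class in each library. Points are the shares, bars the exact 95% binomial intervals, and black ticks the share that free RNA alone would give. For *Spp1* the Myh11-high share lies above the Myh11-low share in both libraries (42.4% against 26.6%, and 43.3% against 21.1%), and for *Runx2* below it (15.7% against 26.6%, and 6.71% against 15.4%).

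*Mgp* (chr6:136872435-136875823, minus strand) encodes a small matrix protein that needs vitamin K for its carboxylation and whose loss calcifies arteries in mice. It had a UMI in 98.9% and 98.6% of all cells. Free RNA alone would give a *Mgp* UMI in 85.5% and 75.3% of them. A UMI of *Mgp* in a cell thus does not by itself show that the cell expressed it. By summed UMIs it ranked between 14 and 53 among all genes in the 4 classes. Its level in Myh11-high cells was 5631 and 4254 CPM, and in Myh11-low cells 3843 and 5826 CPM. After TMM scaling, Myh11-high cells differed from Myh11-low cells by 0.64 in replicate 1 and by -0.32 in replicate 2 on the log2 scale, so that the groups overlapped. The fold change of 0.15 ± 0.26 was small beside its error (adjusted p = 0.807, edgeR). With the block it was 0.19 ± 0.20 (adjusted p = 0.536, edgeR).

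Among the pyrophosphate genes, *Enpp1* (chr10:24637914-24712159, minus strand) measured 12.5 and 5.72 CPM in Myh11-high cells and 13.1 and 13.0 CPM in Myh11-low cells. Only replicate 2 showed a difference. Its log2 fold change was -0.43 ± 0.32 (adjusted p = 0.491, edgeR). *Ank* (chr15:27466677-27594909, plus strand) measured 19.5 and 20.1 CPM against 22.4 and 47.3 CPM. Both Myh11-high values were below both Myh11-low values, and the library difference lay in the Myh11-low cells. Its log2 fold change was -0.70 ± 0.41 (adjusted p = 0.383, edgeR), and with the block -0.67 ± 0.20 (adjusted p = 0.0495, edgeR). That call was present in 3 of the 9 settings with a block, with a fold change between -0.69 and -0.55 in all 9. It was lost without EC-like and macrophage-like cells (adjusted p = 0.0696, edgeR). It was also lost with RLE scaling, CPM limits, free RNA subtracted, the top 5% of cells left out or the mitochondrial limit of 10%. EC-like cells had 68.8 and 72.5 CPM of *Ank*, and 73 and 106 of the Myh11-low cells but 2 and 2 of the Myh11-high cells were EC-like. How much of the difference they carried was not tested.

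*Alpl* (chr4:137741733-137796384, minus strand), the phosphatase that opposes both, was sparse, with a UMI in 3.64% and 1.23% of all cells. Myh11-high cells held 3 and 2 *Alpl* UMIs in all, and Myh11-low cells 75 and 47. The ratio of the levels was 0.264 (exact 95% interval 0.0532 to 0.801) and 0.226 (0.0266 to 0.865). Both intervals lay below equality, but they cover counting error only and take UMIs as independent. The 75 and 47 UMIs lay in 53 and 29 cells. EC-like cells, most of which were not Myh11-high, had 5.96 and 2.09 CPM of *Alpl*, from 13 and 4 UMIs. With EC-like and macrophage-like cells kept or left out, *Alpl* was not called with or without the block. In both cases its unadjusted p was under 0.05 (edgeR) only with the block. How much of the difference EC-like cells carried was not tested. The fit gave -1.93 ± 0.95 on the log2 scale (adjusted p = 0.297, edgeR), and with the block -1.90 ± 0.64 (adjusted p = 0.0651, edgeR). With a block *Alpl* was called in 3 of the 9 settings, with an adjusted p between 0.0151 and 0.0790. Of the 177 and 84 cells with an *Alpl* UMI, 177 and 83 also had a *Mgp* UMI, as nearly all cells did.

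*Tnfrsf11b* (chr15:54250619-54278484, minus strand), the gene of osteoprotegerin, measured 72.7 and 86.5 CPM in Myh11-high cells and 39.97 and 98.8 CPM in Myh11-low cells. The libraries did not share a direction. The log2 fold change was 0.32 ± 0.62 (adjusted p = 0.822, edgeR). The share of cells with a UMI was higher in Myh11-high cells of both libraries, at 46.5% and 55.5% against 24.8% and 39.4%, with EC-like cells at 6.25% and 9.93%. At 3000 UMIs per cell it was 16.5% and 19.5% against 8.04% and 18.0%, so that in replicate 2 the difference was small at equal depth. The median depth of a Myh11-high cell was 21601 and 16862.5 UMIs, above the 18106.5 and 13039 UMIs of a Myh11-low cell.

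The phosphate transporters had fitted values of opposite sign, although the levels of *Slc20a2* were close in replicate 2. *Slc20a1* (chr2:129198764-129211616, plus strand), the promoter among them, measured 21.9 and 15.9 CPM in Myh11-high cells and 25.8 and 23.0 CPM in Myh11-low cells. *Slc20a2* (chr8:22476788-22569612, plus strand) measured 31.3 and 19.6 CPM against 20.8 and 19.7 CPM. *Slc20a1* was the lower one in Myh11-high cells in both libraries, and neither passed the test (log2 fold changes of -0.27 ± 0.18 and 0.43 ± 0.22, adjusted p = 0.445 and 0.311, edgeR). The test of the difference between the transporters was not run.

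*Runx2* (chr17:44495987-44814797, minus strand), the master regulator of osteoblasts, measured 10.3 and 4.25 CPM in Myh11-high cells, 18.6 and 13.4 CPM in Myh11-low cells, 19.9 and 12.1 CPM in Sox9-positive cells and 20.3 and 11.9 CPM in cycling cells. Both Myh11-high sums were below all 6 others. The log2 fold change against Myh11-low cells was -1.06 ± 0.49 (adjusted p = 0.271, edgeR), and with the block -1.09 ± 0.18 (adjusted p = 0.00592, edgeR). With a block the call was present in all 9 settings, with a fold change between -1.13 and -0.88. The share of cells with a *Runx2* UMI was 15.7% (exact 95% interval 10.9 to 21.5) and 6.71% (4.25 to 9.98) of Myh11-high cells. Of Myh11-low cells it was 26.6% (24.5 to 28.9) and 15.4% (14.0 to 17.0), and of EC-like cells 4.46% and 3.97%. At 3000 UMIs per cell the shares were 2.77% and 1.08% against 5.34% and 3.88%. The antisense gene *Runx2os1* was listed with 595 and 419 UMIs, and how strand was used in the counting is not given in the sources used here, so that reads of the pair may not be separated.

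*Msx2* (chr13:53466884-53473074, minus strand), a homeobox gene induced in calcifying arteries, was close to absent in replicate 1, with 11 UMIs in 4866 cells. In replicate 2 it had 169 UMIs. There, Myh11-high cells held 19 UMIs (3.11 CPM) and Myh11-low cells 24 (0.74 CPM), a ratio of 4.21 (exact 95% interval 2.18 to 8.02). This interval covers counting error only and takes UMIs as independent. The 19 and 24 UMIs lay in 12 and 21 cells, and 1 cell of replicate 2 had 7 *Msx2* UMIs. With each cell capped as for *Spp1*, the levels in replicate 2 were 1.96 CPM in Myh11-high cells and 0.65 CPM in Myh11-low cells. In replicate 1 these classes held 0 and 1 UMIs, too few for a ratio. The fit gave 2.19 ± 1.57 (adjusted p = 0.478, edgeR), and with the block 2.15 ± 0.67 (adjusted p = 0.0529, edgeR). With a block *Msx2* was called in 4 of the 9 settings, with an adjusted p between 0.00413 and 0.0689.

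**Figure D3:**
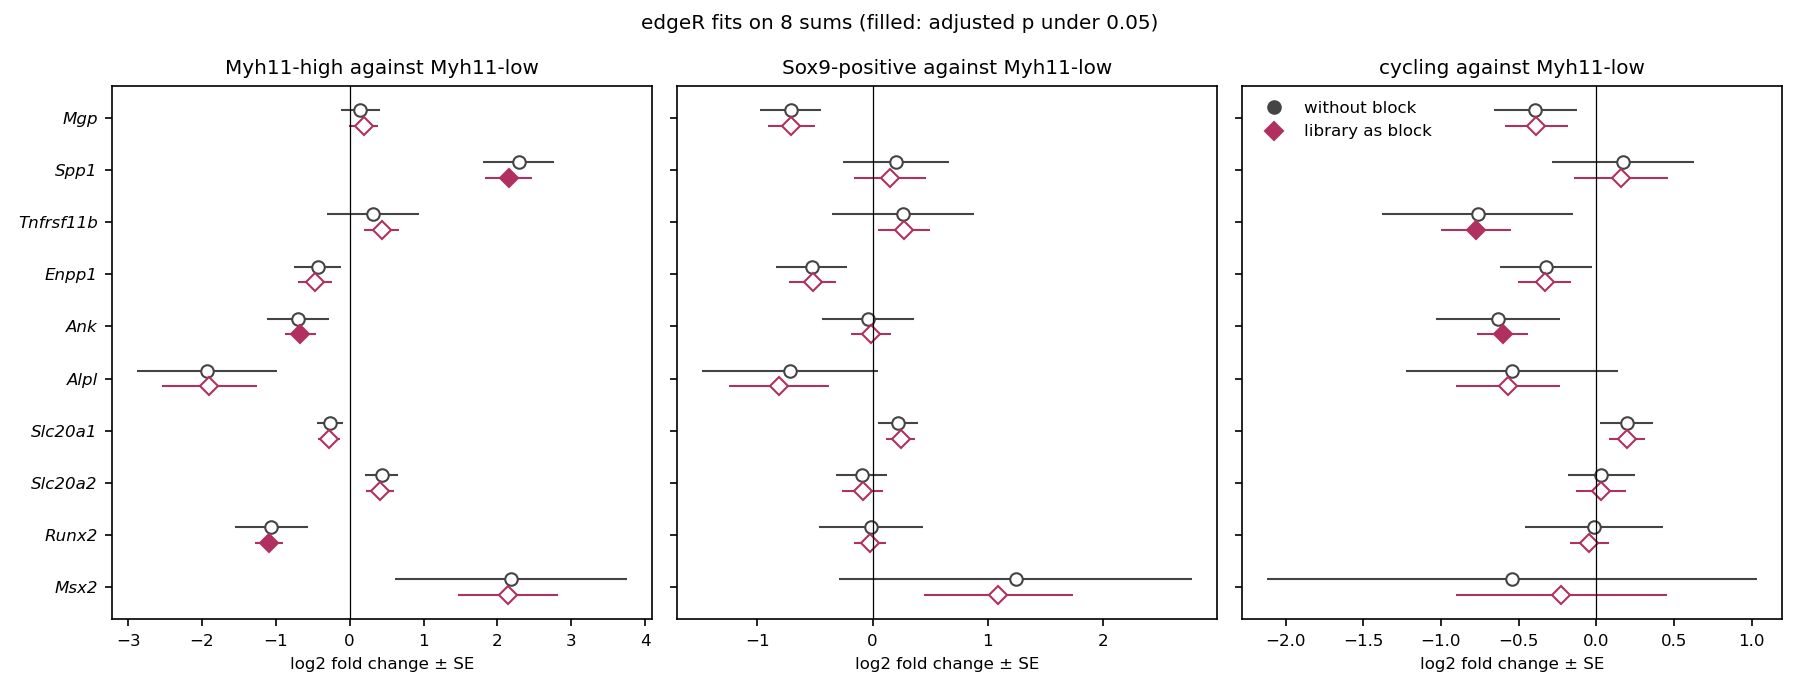
Log2 fold changes of the 10 members (x axes) in Myh11-high, Sox9-positive and cycling cells, each against the shared Myh11-low cells. Markers with bars are the fitted value and its SE, without and with the library as a block. Filled markers have an adjusted p under 0.05 in edgeR's quasi-likelihood test. *Spp1* has the largest fitted value in Myh11-high cells without the block (2.29 ± 0.48, beside 2.19 ± 1.57 for *Msx2*), and *Runx2* is to the left of 0 in both fits. The TMM-scaled differences of *Runx2* in the single libraries, which are not drawn, were -0.76 and -1.52.

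Sox9-positive cells were compared with Myh11-low cells to ask whether cells with the cartilage regulator carry another balance of these genes. None of the 10 members passed edgeR's quasi-likelihood test (0.0299% of all genes tested did, 4 of 13366, and 0 of those 4 were members). In edgeR 1 member (*Mgp*) had an unadjusted p under 0.05, and the share of all genes under that limit was not counted. DESeq2 called 0 members, beside 73 of 20361 genes. The fit with the block called 0 members, beside 0.524% of all genes. The 4 genes called, named after their values were seen, were *Adgrl4*, *Tie1*, *Nts* and *Clec14a*, all lower in Sox9-positive cells. Of the Sox9-positive cells 0 and 2 were EC-like, and the summed EC markers were at 8.7 and 11.7 CPM there and at 174 and 159 CPM in Myh11-low cells.

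*Mgp* was lower in Sox9-positive cells of both libraries, at 2516 and 3372 CPM against 3843 and 5826 CPM. The difference was of like size in the libraries (-0.61 and -0.78 on the log2 scale). The fitted value was -0.71 ± 0.27 (unadjusted p = 0.0339, edgeR, adjusted p = 1), and with the block -0.70 ± 0.20 (adjusted p = 0.25, edgeR). *Enpp1* went the same way, at 9.52 and 8.62 CPM against 13.1 and 13.0 CPM (-0.53 ± 0.31). These differences are larger than their SE but are not calls over all genes. *Spp1*, *Ank* and *Runx2* differed in opposite directions in the libraries, and *Slc20a1* was above Myh11-low cells by 0.02 and 0.41. *Tnfrsf11b* measured 49.1 and 116 CPM against 39.97 and 98.8 CPM, 0.29 and 0.24 higher. *Alpl* held 14 and 6 UMIs, a ratio of 0.923 (exact 95% interval 0.482 to 1.65) and 0.287 (0.1001 to 0.672), so that only replicate 2 gave an interval below equality. Here too the intervals cover counting error only.

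Cycling cells were compared with Myh11-low cells because VSMCs that leave the contractile state also start to divide. Again 0 of the 10 members passed edgeR's quasi-likelihood test, while 6.22% of all genes tested did (831 of 13366). In edgeR 0 members had an unadjusted p under 0.05, a limit for which all genes were not counted. DESeq2 called 0 members, beside 1138 of 20361 genes. With the block 2 members were called, *Ank* and *Tnfrsf11b*, both lower, beside 27.5% of all genes, which is no smaller a share. *Tnfrsf11b* measured 23.3 and 60.0 CPM in cycling cells and 39.97 and 98.8 CPM in Myh11-low cells, a difference of -0.82 and -0.74. *Ank* measured 17.1 and 28.7 CPM against 22.4 and 47.3 CPM, a difference of -0.43 and -0.74. Both were lower in both libraries. On the log2 scale the libraries differed from each other by more than the classes did for *Tnfrsf11b*. For *Ank* the libraries differed in cycling cells by about as much as the classes did in replicate 2. The fitted values were -0.76 ± 0.62 for *Tnfrsf11b* (adjusted p = 0.616, edgeR) and -0.63 ± 0.40 for *Ank* (adjusted p = 0.496, edgeR). With the block they were -0.77 ± 0.22 (adjusted p = 0.0398, edgeR) and -0.60 ± 0.16 (adjusted p = 0.0336, edgeR). The call of *Ank* was present in all 9 settings with a block, and that of *Tnfrsf11b* in 8, the exception being the overlapping groups (adjusted p = 0.125). Of the cycling cells 19 and 21 were EC-like. *Mgp* (-0.39 ± 0.26) and *Enpp1* (-0.32 ± 0.30) were also below Myh11-low cells in both libraries without passing the test with or without the block. *Spp1*, *Runx2*, *Slc20a1* and *Slc20a2* had fitted values between -0.02 and 0.20.

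The classes leave out cells between the limits, so the levels were also followed over *Myh11* and *Sox9* UMIs per cell in all cells. *Spp1* measured 94.8, 112, 174, 266 and 818 CPM in cells with 0, 1, 2 to 4, 5 to 19 and at least 20 *Myh11* UMIs in replicate 1. In replicate 2 it measured 77.2, 75.2, 92.0, 156 and 138 CPM. The level was higher at each step in replicate 1, while in replicate 2 it was higher from 2 to 4 UMIs on, by less, and not higher in the last bin than in the one before. *Mgp* went over the same bins from 3143 to 7484 CPM in replicate 1 and went from 4275 to 2895 CPM in replicate 2, so that the libraries ran in opposite directions. *Runx2* measured 19.2, 21.6, 21.2, 14.9 and 4.09 CPM in replicate 1, and 12.6, 11.97, 5.07, 5.48 and 6.12 CPM in replicate 2, lower with 5 or more *Myh11* UMIs in both. The median depth of the cells also differed between the lowest and highest bins, from 21761 to 31018 UMIs and from 15445 to 23509 UMIs, and its part in these levels was not tested.

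**Figure D4:**
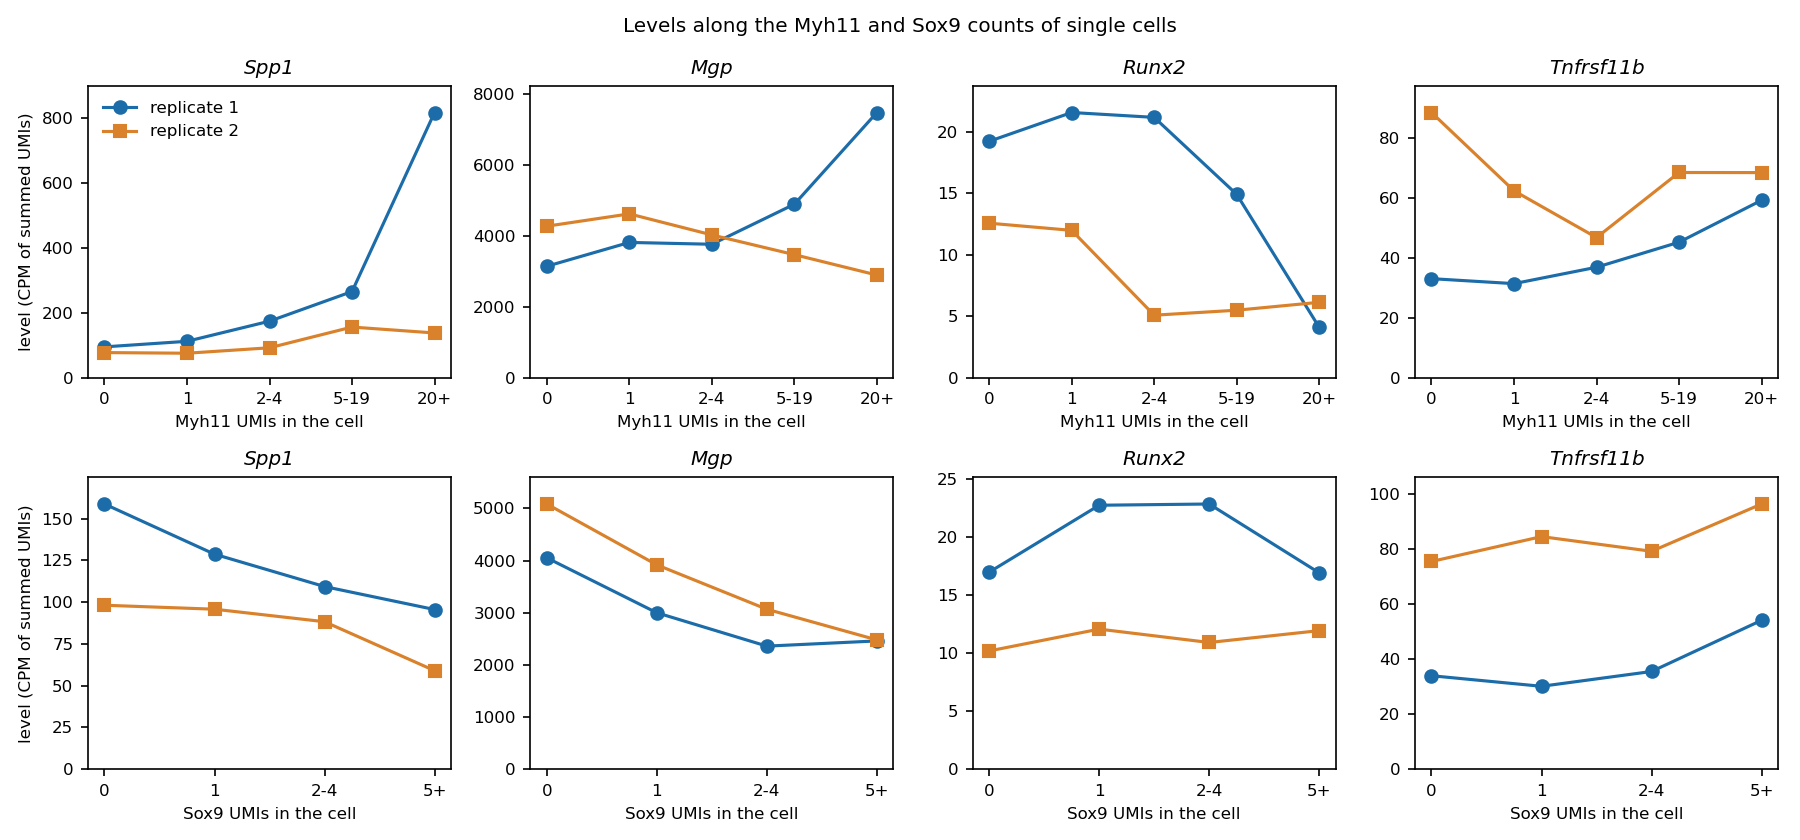
CPM of selected members (y axes, linear, from 0) in cells binned by their *Myh11* or *Sox9* UMIs (x axes), with a line for each library. *Spp1* reaches 818 CPM in replicate 1 and 138 CPM in replicate 2 at 20 or more *Myh11* UMIs, and *Mgp* is lower in cells with more *Sox9* in both libraries.

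Over *Sox9* UMIs, *Mgp* measured 4052, 2998, 2359 and 2459 CPM in cells with 0, 1, 2 to 4 and at least 5 *Sox9* UMIs in replicate 1, and 5085, 3917, 3066 and 2478 CPM in replicate 2. It was lower with more *Sox9* in both libraries, up to the last step of replicate 1. *Spp1* measured 159, 129, 109 and 95.6 CPM and 98.2, 95.8, 88.3 and 59.0 CPM, in the same order. *Slc20a1* was higher in the last bin than in the first, at 34.7 against 26.5 CPM and 28.5 against 23.1 CPM. The inhibitor *Tnfrsf11b* was also higher in the last bin than in the first, at 54.1 against 33.9 CPM and 96.4 against 75.5 CPM. The median depth of the cells was higher in the last bin as well, at 30279 against 20747 UMIs and 22465 against 14671 UMIs. These bins have no test, since cells are not replicates.

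The promoters were set against the inhibitors as the summed level of *Runx2*, *Alpl* and *Slc20a1*, in percent of the summed level of *Mgp*, *Enpp1*, *Ank* and *Tnfrsf11b*. In replicate 1 the promoters came to 0.572% of the inhibitors in Myh11-high cells, 1.19% in Myh11-low cells, 1.86% in Sox9-positive cells and 1.57% in cycling cells. In replicate 2 the values were 0.468%, 0.633%, 1.22% and 0.931%. The disjoint classes stood in the same order in both libraries, from Myh11-high to Sox9-positive cells. With the overlapping groups of the rule the order was not the same, since in replicate 1 Myh11-low cells (1.54%) were slightly above cycling cells (1.52%). On the log2 scale the ratio differed from that of Myh11-low cells by -0.75 ± 0.44 (SD, n = 2) in Myh11-high cells, by 0.79 ± 0.22 in Sox9-positive cells and by 0.48 ± 0.11 in cycling cells. An exact permutation test of 2 libraries against 2 cannot go below 0.333, and no p is given. The sums are ruled by *Mgp*, whose level is far above those of the other inhibitors. Without *Mgp* the differences were -0.69 in Myh11-high, -0.00196 in Sox9-positive and 0.74 in cycling cells, so that the value in Sox9-positive cells rested on *Mgp*. With the overlapping groups the difference in cycling cells was 0.0788.

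**Figure D5:**
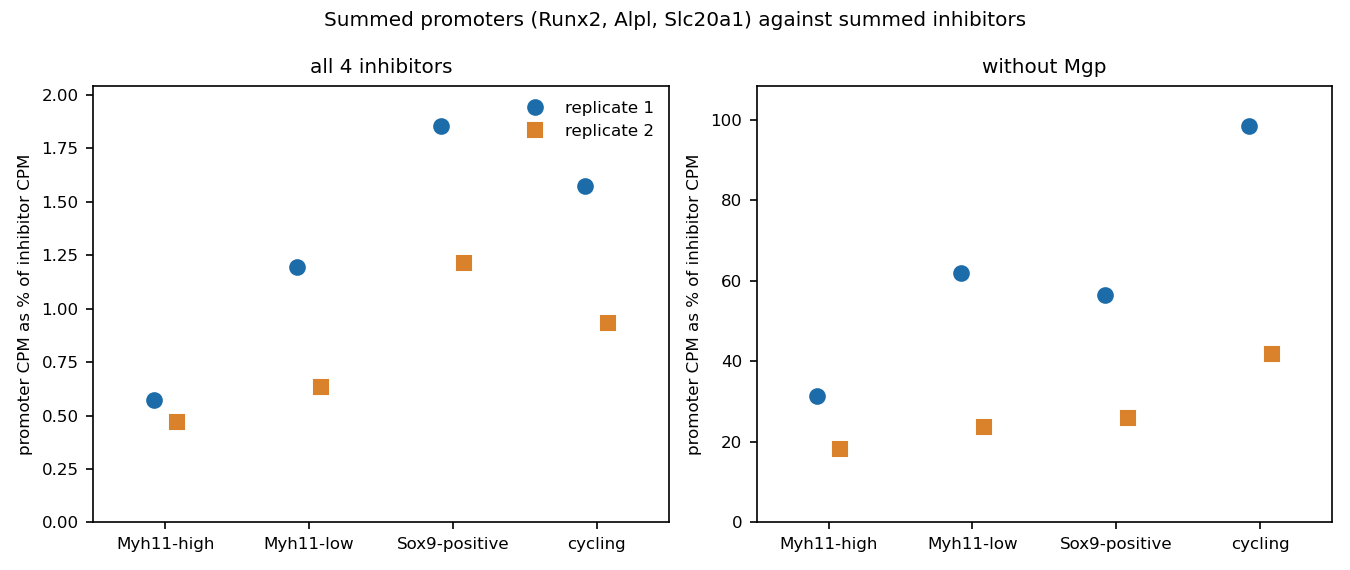
Summed CPM of 3 promoters in percent of the summed CPM of the inhibitors (y axes, linear, from 0) in the 4 classes of each library, with and without *Mgp* among the inhibitors. With *Mgp* the order of these disjoint classes is the same in both libraries, from 0.572% and 0.468% in Myh11-high cells to 1.86% and 1.22% in Sox9-positive cells.

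The other genes of these pathways were read from 8 lists, whose members also include the 10 genes, in the same fits. Over all genes the median log2 fold change was -0.03 between Myh11-high and Myh11-low cells, 4.56% of all genes were called, and 27.3% with the block, against which the counts below have to be read. Of the 9 osteopontin receptor genes, 3 rose in Myh11-high cells and 0 fell, with a list median of 1.38, and 8 rose with the block. The integrin chain *Itga8*, which is abundant in smooth muscle, measured 241 and 432 CPM against 39.1 and 35.3 CPM (3.29 ± 0.30, adjusted p = 0.00516, edgeR). *Itgb3*, which forms a vitronectin and osteopontin receptor with the alpha-V chain, measured 16.9 and 19.6 CPM against 5.54 and 5.01 CPM (1.90 ± 0.20, adjusted p = 0.00855, edgeR), and *Itgb1* rose by 0.85 ± 0.16 (adjusted p = 0.0350, edgeR). Relations of *Spp1* to these receptors from cell to cell were not tested.

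Of the vitamin K and matrix inhibitors, 10 of 10 were tested and 1 fell in Myh11-high cells. This was *Gas6*, a vitamin K-dependent ligand of TAM receptors, with 530 and 441 CPM against 1256 and 1346 CPM (-1.31 ± 0.12, adjusted p = 0.00645, edgeR). Of the 4 tested genes of the RANKL system 1 rose, *Tnfrsf11a*, the gene of the receptor RANK, with 3.06 and 4.74 CPM against 0.37 and 0.49 CPM (3.29 ± 0.58, adjusted p = 0.0326, edgeR). The decoy receptor *Tnfrsf11b* and the receptor thus differed in their result, and the difference between them was not tested. Of the 12 tested genes for phosphate, pyrophosphate and adenosine, 1 rose (*Smpd3*, a sphingomyelinase needed for bone mineralization, 2.90 ± 0.54, adjusted p = 0.0379, edgeR), and with the block 4 rose and 2 fell.

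Of the 14 tested osteochondrogenic regulators, 0 rose and 1 fell in Myh11-high cells, with a list median of -0.73. The gene that fell was *Cbfb*, which encodes the partner that RUNX proteins need to bind DNA (-0.90 ± 0.17, adjusted p = 0.0418, edgeR). With the block 6 fell, among them *Runx2*, *Runx1* (-1.48) and *Twist2* (-1.34), and 1 rose (*Sox6*, 1.76). The matrix lists gave 1 call each: of the 5 tested bone matrix genes *Postn* rose (1.33 ± 0.19, adjusted p = 0.0175, edgeR), and of the 6 tested cartilage matrix genes *Acan* rose (5.87 ± 0.93, adjusted p = 0.0254, edgeR), with 80.1 and 16.2 CPM against 1.39 and 0.37 CPM. The median of the cartilage list was -1.78, opposite in sign to its 1 call, and with the block 3 of its genes fell. Of the 9 matrix vesicle genes 0 were called, and with the block 6 rose and 1 fell.

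In Sox9-positive and cycling cells 0 genes of the 8 lists passed the test without the block. With the block, *Sox9* itself, used to choose the cells, and *Pdgfb* were called in Sox9-positive cells. *Pdgfb*, a growth factor of endothelial cells, was lower (-5.16, adjusted p = 0.0195, edgeR) and measured 87.1 and 71.4 CPM in EC-like cells. In cycling cells with the block, which called 27.5% of all genes, 4 of the 5 tested bone matrix genes and 4 of the 9 matrix vesicle genes fell and 0 rose. Of the vitamin K and matrix inhibitors 3 of 10 fell, among them *Gas6* (-0.48), and 0 rose. The other lists moved both ways or not at all: among the osteochondrogenic regulators *Cbfb* rose (0.66) while *Runx1* (-0.97) and *Sox5* (-0.73) fell, and among the cartilage matrix genes *Matn3* rose (1.58) while *Comp* fell (-1.09). Of the genes for phosphate, pyrophosphate and adenosine, the nucleoside transporter *Slc29a1* rose (0.59) while *Pdgfb* (-2.15) and *Ank* fell. Of the RANKL system *Tnfrsf11b* fell, and of the osteopontin receptors 0 were called.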

How the data were processed

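Primary aortic VSMCs were profiled with the 10x Genomics 3′ v3 method. The authors aligned the reads with Cell Ranger (3.0.2 for replicate 1 and 3.1.0 for replicate 2 per the file headers) to mm10 per the submitters' processing notes, and deposited raw UMI counts per gene and barcode, empty droplets included. Here cells were filtered as in the study, and no doublet caller was run. In its place the top 5% of cells by UMIs were left out in an alternative. UMI counts were summed per library and class. The test was edgeR's quasi-likelihood F test (edgeR 4.0.16 in R 4.3.3, TMM scaling, genes kept by filterByExpr), with Benjamini-Hochberg adjustment over all genes tested and a threshold of 0.05. Each SE was computed from the log2 fold change and its F value. No p was made from cells. Differences within 1 library are on log2 CPM after TMM scaling, while the printed CPM are not scaled by TMM, so that the former differ a little from the ratio of the latter. DESeq2 1.42.0, RLE scaling, other limits and the library as a block were alternatives. The edgeR fit without the block was run on simulated counts that held no library effect, unlike these sums. The fit with the block and DESeq2 were not run on simulated counts. The labels call the libraries biological replicates, and per the study's methods a cell preparation pooled several aortae. Without the block, p thus measures the spread between these cultures. With the block, it measures the spread that remains once a shift shared by a library is taken out. Neither measures the spread between single animals.

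Only the fit with the library as a block pairs the sums of 1 library, while the fit without it treats all sums as independent. Sums of 1 library share a culture, and their deviations from the class means correlated across genes at 0.562 to 0.833 for all pairs of classes. The free RNA profile came from barcodes of 1 to 100 UMIs, with its share from 5 EC markers in cells that are not EC-like. Shares at equal depth are expected values after thinning to 3000 UMIs per cell, which every cell reached. Positions are from GENCODE M21 (GRCm38). The members, lists, classes and tests were chosen with earlier results of these data known. All 10 members are named, and from each list at most the 5 called genes with the largest change per comparison. Python 3.11.15 was used with numpy 2.4.6, scipy 1.17.1 and pandas 2.3.3.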

Additional observations from a re-analysis of the deposited data

Results flagged for a closer look

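Barcodes with 20% or more mitochondrial UMIs (87 in replicate 1 and 59 in replicate 2) are in none of the comparisons and still carried UMIs of 8 members, above the 3 counts that a count of 0 allows. Over both libraries they held 873 UMIs of *Mgp*, 50 of *Spp1*, 33 of *Slc20a1*, 16 of *Slc20a2*, 14 of *Runx2*, 6 of *Enpp1*, 6 of *Ank* and 6 of *Tnfrsf11b*, and 0 of *Alpl* and *Msx2*. The level of *Mgp* in them was 1475 and 848 CPM in replicates 1 and 2, below that of each of the 4 classes, and that of *Slc20a1* was 56.4 and 31.2 CPM, above that of each of the 4 classes. With 10 to 23 UMIs per library behind *Slc20a1*, no test was made.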

How the results depend on the processing

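The number of genes that differed between Myh11-high and Myh11-low cells was 609, and it was 942 without a filter on low counts, 3644 with the library as a block, 1375 with DESeq2 and 967 with limits on CPM per cell. In Sox9-positive cells the 4 genes became 52 without the filter, 70 with the block, 73 with DESeq2, 0 with the overlapping groups and 0 without EC-like and macrophage-like cells. In cycling cells the 831 genes became 3676 with the block and 141 with the overlapping groups. The other settings without a block kept these counts within 1.5 times. Over all 9 settings with a block the counts were 3574 to 5676 in Myh11-high, 3 to 140 in Sox9-positive and 2482 to 4030 in cycling cells, and the 3 in Sox9-positive cells were found without EC-like and macrophage-like cells. The ratio of promoters to inhibitors moved without *Mgp* to -0.00196 (turned in sign) in Sox9-positive cells and to 0.74 in cycling cells, and with the overlapping groups to 0.57 and 0.0788. With 1 library left out it was -1.06 to -0.44 in Myh11-high, 0.64 to 0.94 in Sox9-positive and 0.40 to 0.56 in cycling cells. With 1 library left there was no test.

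Member values that turned in sign were close to 0 or differed between the libraries. Without replicate 1 and without replicate 2, the values in Myh11-high cells were -0.32 and 0.64 for *Mgp*, -1.05 and 0.0185 for *Enpp1* and -0.0556 and 0.949 for *Tnfrsf11b*. In Sox9-positive cells they were -0.10 and 0.446 for *Spp1*, -0.215 and 0.25 for *Ank* and -0.14 and 0.10 for *Runx2*, and in cycling cells -0.192 and 0.0896 for *Runx2* and 0.2004 and -0.14 for *Slc20a2*. In Sox9-positive cells *Ank* was 0.0546 with CPM limits, 0.0698 with these and the block, 0.0025 without EC-like and macrophage-like cells, 0.0285 with these left out and the block, and 0.0021 with the block and a cycling limit of 20. *Runx2* was 0.000374 with DESeq2, 0.0049 with overlapping groups, 0.0897 with CPM limits and 0.13 with these and the block, where *Slc20a2* was 0.0016. In cycling cells *Runx2* was 0.013 without the filter, 0.0814 with CPM limits, 0.0566 with these and the block, 0.00081 without the top 5% of cells and 0.028 with a cycling limit of 20. *Slc20a1* was -0.0033 with overlapping groups and -0.0063 with these and the block. *Msx2* was 0.51 with overlapping groups, 0.54 with these and the block, and 0.0901 with CPM limits and the block. The value of 0.0185 for *Enpp1* is on the TMM scale, and its unscaled levels (12.5 against 13.1 CPM) lie the other way. The cause was not tested.

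The block on its own changed the calls given beside *Spp1*, *Runx2*, *Ank* and *Tnfrsf11b* and no other call of a member. Joined with another choice, it also called members in Myh11-high cells, beside many other genes. There, 5676 of 14447 genes were called with overlapping groups and 3953 of 13193 with CPM limits. A cycling limit of 20 gave 3791 of 13434. The top 5% of cells left out gave 3606 of 13249, and the mitochondrial limit of 10% gave 3647 of 13338. The calls below have to be read against these counts. The overlapping groups also share cells, while the fit takes their sums as separate. *Alpl* was called lower with CPM limits, overlapping groups and a cycling limit of 20. *Msx2* was called higher with CPM limits, overlapping groups, the top 5% of cells left out and the mitochondrial limit of 10%. *Slc20a1* was called lower with overlapping groups and *Slc20a2* higher with CPM limits. With 2 libraries only, a member that missed the test is not shown to be equal between the classes. The members with the fewest UMIs in all cells were *Alpl* (235 and 110) and *Msx2* (11 and 169). What limited the calls was not tested.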
